A study of Mus musculus with 18 samples.

Results

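The genes described here are the mouse collagen chains, laminin chains, matrix metalloproteinases (MMPs) and tissue inhibitors of metalloproteinases (TIMPs) measured in whole liver. They were taken by symbol (Col, Lam, Mmp and Timp names followed by chain or member numbers) where the 18 libraries held at least 10 read counts of the gene together. The rule found 68 of the 37620 genes in the count table: 37 collagen chains, 11 laminin chains, 17 MMPs and 3 TIMPs. Another 14 matching genes had fewer counts, and 4 of these (Mmp1a, Mmp1b, Mmp20 and Col10a1) had none.

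RNA was sequenced from flash-frozen livers of female mice in 3 groups of 6. The old ouabain group was treated with ouabain at 1 mg/kg, the old vehicle group received saline, and both were sampled at 24 months of age. Treatment began at 21 to 22 months and ran over 12 weeks, with 4 treatments in each treated week, 2 weeks of rest between rounds, and sampling 3 days after the last round. The young group was 7 weeks old and untreated, so old vehicle and young mice differ in age and also in saline treatment. The strain is not stated in the labels used here, and no group carries a genetic change by the labels. Ouabain is a cardiac glycoside, a plant compound that inhibits the sodium-potassium pump. The labels number replicates without saying outright that each is a separate animal, so p-values measure the spread between these libraries.

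Collagens are triple-helical structural proteins: types I, III and V form fibrils, type IV forms the network of basement membranes, and type XVIII releases the fragment endostatin. Laminins are basement membrane trimers of an alpha, a beta and a gamma chain. MMPs are zinc proteases, secreted or membrane-bound, that cut matrix and many other proteins, and TIMPs bind and inhibit them. In liver, stellate cells and portal fibroblasts are known as the main source of fibrillar collagen, while macrophages and neutrophils supply several MMPs.

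Libraries held 4201251 to 11113307 counts; old ouabain replicate 5 was the smallest, and the next smallest held 7527846. Levels are CPM, read counts scaled to a common library depth, and a count of 0 allows up to 0.27 to 0.714 CPM depending on the library, for counting error only. The 10 hepatocyte markers summed to 116350 to 144372 CPM in old ouabain, 103488 to 153500 CPM in old vehicle and 116813 to 171556 CPM in young livers, so the tissue label fits its markers. Differences were tested in 1 edgeR quasi-likelihood fit over 14226 genes, and a gene is said to have risen or fallen where the Benjamini-Hochberg adjusted p was below 0.05. Standard errors (SE) belong to log2 fold changes. Of the 68 genes, 43 had enough counts for the test (24 collagens, 9 laminins, 8 MMPs and 2 TIMPs), and 25 did not. In bulk RNA, fewer cells of a type and less RNA per cell cannot be told apart.

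Between old vehicle and young livers, 6 of the 43 tested genes rose (Mmp9, Mmp12, Mmp14, Mmp23, Mmp27 and Timp2) and 6 fell (Mmp15, Col27a1, Col4a2, Col4a5, Lamb2 and Lamc1). These are 27.9% of the tested members, against 19.2% of all genes tested (10.9% higher and 8.32% lower). The filter on low counts can admit a gene because old vehicle alone is high, so this share is a description. Every rise was in a protease or inhibitor, and 5 of the 6 falls were in structural chains. Of the 43 tested, 24 are collagens and 9 are laminins, so structural chains are most of the genes tested. With no filter on low counts the collagen Col23a1 also rose (2.13, adjusted p = 0.0299, edgeR). Between old ouabain and old vehicle livers, Mmp15 rose and Mmp12 fell, which is 4.65% of the tested members, against 1.84% of all genes (0.991% higher and 0.851% lower). Between old ouabain and young livers only Mmp23 passed, as a rise, which is 2.33% of the tested members, against 1.12% of all genes (0.738% higher and 0.387% lower). The values of that last comparison ran from -0.94 (Col4a5) to 1.19 (Mmp23) on the log2 scale, with a median of -0.04. The old vehicle libraries enter both of the first 2 comparisons and the young libraries enter 2 of the 3, so the comparisons are not independent.

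Mmp12 (ENSMUSG00000049723, chromosome 9), macrophage metalloelastase, is a secreted protease that cuts elastin. Its level ran from 1.42 to 2.57 CPM in old ouabain livers (median 2.0), from 2.63 to 8.36 CPM in old vehicle livers (median 3.93) and from 1.12 to 2.37 CPM in young livers (median 1.79). Every old vehicle library lay above every library of the other groups, and the old ouabain and young ranges overlapped. The means were 1.95 ± 0.396 CPM in old ouabain, 4.94 ± 2.3 CPM in old vehicle and 1.83 ± 0.461 CPM in young livers (SD, n = 6 each). Mmp12 fell in old ouabain relative to old vehicle, with a log2 fold change of -1.31 (SE 0.26, adjusted p = 0.0155, edgeR), and rose in old vehicle relative to young, at 1.41 (SE 0.26, adjusted p = 0.000782). Old ouabain and young did not differ beyond their spread, at 0.10 (SE 0.29, adjusted p = 0.898). The fall with ouabain passed without each library in turn, with adjusted p of at most 0.0497.

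Mmp12 lies in a cluster of MMP genes on chromosome 9 with Mmp3, Mmp7, Mmp8, Mmp13 and Mmp27, and the start regions of all 6 are shown because several of them were higher in old vehicle than in young livers (Mmp3, with 26 counts in all, was not among these). The sequences are the 100 bases before the gene start in RefSeq on GRCm38.p6, all on the plus strand. Capitals mark the AP-1 motif (TGANTCA) and the TATA motif (TATAAA); Mmp8 and Mmp27 hold neither, and Mmp15, on chromosome 8, is set beside them because it moved the other way.
Mmp12 (chr9:7347274-7347373): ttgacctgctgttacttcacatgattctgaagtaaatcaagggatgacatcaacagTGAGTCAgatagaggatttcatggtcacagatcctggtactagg
Mmp13 (chr9:7272414-7272513): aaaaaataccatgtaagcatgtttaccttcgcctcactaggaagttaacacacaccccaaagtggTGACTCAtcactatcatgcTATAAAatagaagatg
Mmp3 (chr9:7445722-7445821): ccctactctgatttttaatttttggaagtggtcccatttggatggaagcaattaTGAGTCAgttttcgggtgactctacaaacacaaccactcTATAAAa
Mmp7 (chr9:7691990-7692089): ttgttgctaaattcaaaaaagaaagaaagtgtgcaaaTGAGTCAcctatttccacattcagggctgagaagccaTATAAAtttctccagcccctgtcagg
Mmp8 (chr9:7558329-7558428): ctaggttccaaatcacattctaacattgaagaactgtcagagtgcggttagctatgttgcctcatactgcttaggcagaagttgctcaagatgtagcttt
Mmp27 (chr9:7571296-7571395): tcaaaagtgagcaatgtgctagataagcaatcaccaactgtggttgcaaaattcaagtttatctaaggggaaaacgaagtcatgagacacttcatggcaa
Mmp15 (chr8:95352196-95352295): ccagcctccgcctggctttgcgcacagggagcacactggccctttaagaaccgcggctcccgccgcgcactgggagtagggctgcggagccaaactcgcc
The 250 bases before the gene start were searched on both strands in the 49 of 68 genes with an entry in RefSeq's table. TGANTCA was found in 4 of 12 MMP genes, or 33.3%, starting 44 bases before the gene start in Mmp12, 35 in Mmp13, 46 in Mmp3 and 63 in Mmp7. The same letters occur in 1 of 29 collagen genes (Col6a1), in no laminin or TIMP gene matched, and in 7.82% of all 27025 genes in the table. TATAAA was present in 25% of the MMP genes, against 14.3% of all genes, and CCAAT in 25%, against 37.5%. The motifs do not overlap each other in the sequences shown. A match is a description of the letters and not of binding.

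Mmp15 (ENSMUSG00000031790), a transmembrane MMP also called MT2-MMP, moved in the opposite direction. It ran from 20.6 to 39.1 CPM in old ouabain livers (median 34.7), from 12.9 to 22.6 CPM in old vehicle livers (median 19.2) and from 29.4 to 44.1 CPM in young livers (median 32.6). All but 1 of the old ouabain libraries lay above all old vehicle libraries, and old vehicle and young did not overlap. The means were 32.1 ± 7.16 CPM in old ouabain, 18.7 ± 3.19 CPM in old vehicle and 35.3 ± 6.43 CPM in young livers. Mmp15 rose in old ouabain relative to old vehicle, at a log2 fold change of 0.77 (SE 0.16, adjusted p = 0.0161), a call that ends without old ouabain replicate 6 (0.70, adjusted p = 0.0505) and when old ouabain replicate 5 and old vehicle replicate 4 are both left out (0.76, adjusted p = 0.0567). It fell in old vehicle relative to young, at -0.91 (SE 0.15, adjusted p = 0.000417).

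Mmp14, or MT1-MMP, is the membrane protease that cuts fibrillar collagen and activates pro-MMP2. It ran from 33.3 to 45.2 CPM in old ouabain (median 40.4), from 35.2 to 55.3 CPM in old vehicle (median 41.9) and from 26.0 to 39.9 CPM in young livers (median 35.3). The 3 ranges overlapped. Its rise in old vehicle over young was small, at 0.35 (SE 0.11, adjusted p = 0.0331, edgeR), and passed in 12 of the 18 fits that left out 1 library (down to 0.27, adjusted p = 0.0943, without old vehicle replicate 4); with only the 12 libraries compared the adjusted p was 0.0667. In old ouabain against old vehicle the log2 fold change was -0.10 (SE 0.11, adjusted p = 0.676).

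Mmp9, gelatinase B, is carried in neutrophil granules and made by activated macrophages. It ran from 0.653 to 1.3 CPM in old ouabain (median 0.82), from 0.751 to 13.0 CPM in old vehicle (median 1.21) and from 0.183 to 0.998 CPM in young livers (median 0.522). Old vehicle replicate 4 alone reached 13.0 CPM (136 counts), and the other old vehicle libraries lay between 0.751 and 1.52 CPM. Mmp9 rose in old vehicle relative to young, at 2.59 (SE 0.70, adjusted p = 0.0154, edgeR). Without old vehicle replicate 4 the rise was 1.16 (adjusted p = 0.0216). With limma voom it was 1.82 (adjusted p = 0.0525), and with quality weights 1.46 (adjusted p = 0.0503). DESeq2 gave 2.59 for this rise but returned no adjusted p for Mmp9, so it made no call. In old ouabain against old vehicle Mmp9 did not pass, at -1.80 (SE 0.66, adjusted p = 0.142), and this value was -0.38 (adjusted p = 0.539) without old vehicle replicate 4. The other gelatinase, Mmp2, had medians of 4.43, 5.05 and 4.17 CPM in old ouabain, old vehicle and young livers and passed in no comparison.

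Mmp23, a small membrane-anchored MMP that lacks the usual hemopexin domain, was the only gene of the 68 that passed in both old groups against young. It ran from 1.49 to 2.39 CPM in old ouabain (median 2.35), from 1.88 to 4.2 CPM in old vehicle (median 2.54) and from 0.499 to 1.49 CPM in young livers (median 0.873). Old vehicle and young did not overlap, and old ouabain touched young at 1.49 CPM. The rise was 1.54 in old vehicle over young (SE 0.26, adjusted p = 0.000366, edgeR) and 1.19 in old ouabain over young (SE 0.27, adjusted p = 0.0325). The second call held in 11 of the 18 fits without 1 library and was lost without old ouabain replicate 1, 3, 4 or 5 or young replicate 4, 5 or 6 (adjusted p of 0.0573 to 0.0821). Old ouabain against old vehicle gave -0.35 (SE 0.24, adjusted p = 0.42).

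Mmp27, a little-studied protease of the chromosome 9 cluster, ran from 0.327 to 2.98 CPM in old ouabain (median 1.1), from 1.13 to 3.93 CPM in old vehicle (median 1.85) and from 0.324 to 0.978 CPM in young livers (median 0.598). Old ouabain overlapped both other groups, which did not overlap each other. It rose in old vehicle over young, at 1.75 (SE 0.42, adjusted p = 0.00597, edgeR), and gave -0.63 (SE 0.39, adjusted p = 0.372) in old ouabain against old vehicle. Mmp19, a secreted protease of basement membrane proteins, was the most abundant MMP per kilobase of exon, at 25.8, 25.3 and 26.5 CPM per kilobase in old ouabain, old vehicle and young livers. It passed in no comparison: old vehicle over young was -0.07 (SE 0.09, adjusted p = 0.662), and old ouabain over old vehicle was 0.03 (SE 0.09, adjusted p = 0.907).

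**Figure D1:**
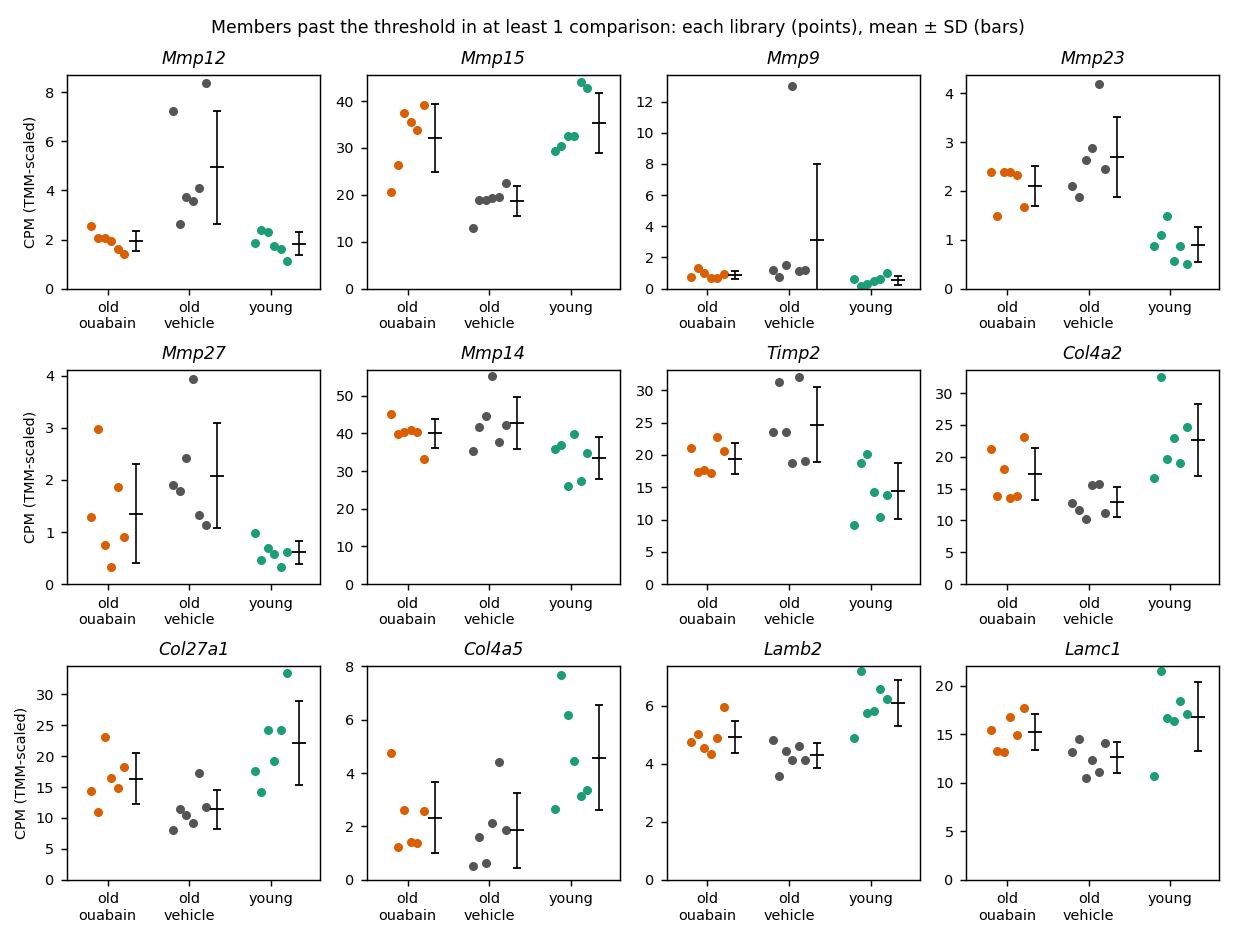
Level (CPM, linear axis from 0) in each library of the 12 genes past the threshold in at least 1 comparison; points are single libraries of old ouabain, old vehicle and young livers, and the bar beside each group is the mean ± SD (n = 6), with the lower end of the Mmp9 old vehicle bar beyond the axis. All 6 old vehicle points of Mmp12 lie above both other groups, and 1 old vehicle library sets the Mmp9 mean.

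Of the 17 MMPs, 5 rose and 1 fell in old vehicle relative to young, 2 did not pass and 9 had too few counts. The filter needs counts in only as many libraries as 1 group holds, so a gene of low level can be tested because 1 group is high. The share among the 8 tested MMPs, 75% against 19.2% of all genes tested, is therefore a description. The median log2 fold change of the 8 tested MMPs was 0.88 in old vehicle against young and -0.25 in old ouabain against old vehicle, and over all genes tested it was -0.01 in both. Summed over the 17 genes the level was 178 ± 10.3 CPM in old ouabain, 174 ± 17.7 CPM in old vehicle and 173 ± 8.83 CPM in young livers, since Mmp19, Mmp14 and Mmp15 hold most of the sum.

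Among the inhibitors, Timp2, which also forms the complex through which MT1-MMP activates pro-MMP2, ran from 17.2 to 22.8 CPM in old ouabain (median 19.1), from 18.8 to 32.0 CPM in old vehicle (median 23.6) and from 9.2 to 20.2 CPM in young livers (median 14.0). Young overlapped both old groups. Timp2 rose in old vehicle over young, at 0.77 (SE 0.18, adjusted p = 0.00438, edgeR), and passed without each library in turn. Old ouabain over old vehicle was -0.36 (SE 0.17, adjusted p = 0.261), with all 6 old ouabain libraries below the old vehicle median. Timp3, the inhibitor that binds to the matrix, had medians of 25.9, 28.4 and 21.0 CPM in old ouabain, old vehicle and young livers. Its value in old vehicle over young was 0.43 (SE 0.16, adjusted p = 0.0695, edgeR), and 0.62 (adjusted p = 0.00248) without young replicate 2. Exons of Timp3 and of Syn3 on the opposite strand share 1733 bases in the reference annotation; the table holds 4320 counts of Timp3 and 137 of Syn3.

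Timp1, the inducible inhibitor of the family, had 105 counts in all, which was too few for the test under the filter. It ran from 0.218 to 0.696 CPM in old ouabain (28 counts), from 0.751 to 1.81 CPM in old vehicle (65 counts) and from 0.0978 to 0.374 CPM in young livers (12 counts). Old vehicle lay above both other groups in every library. Fitted with no filter on low counts, Timp1 rose in old vehicle over young at 2.25 (adjusted p = 0.000356, edgeR) and did not pass in old ouabain over old vehicle at -0.96 (adjusted p = 0.213). The 3 TIMPs summed to 44.9 ± 5 CPM in old ouabain, 54.9 ± 8.53 CPM in old vehicle and 36.2 ± 10.3 CPM in young livers.

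Counting tested and untested genes alike, 5 members did not overlap with higher values in old vehicle than in young (Mmp12, Mmp23, Mmp27, Mmp7 and Timp1) and 3 did not overlap with lower values (Mmp15, Col4a2 and Lamb2). Over all tested genes, a set that leaves out Mmp7 and Timp1, 4.59% were separated upwards and 2.6% downwards. Mmp12 and the untested Timp1 were lower in every old ouabain library than in any old vehicle library, against 0.928% of tested genes. No member was higher in this way, against 1.12%. No member separated old ouabain from young in either direction, against 1.48% upwards and 0.717% downwards.

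The 25 genes with too few counts were 13 collagens, 2 laminins, 9 MMPs and Timp1. With no filter on low counts, 25020 genes were tested, and 11 members rose and 5 fell in old vehicle relative to young, against 6.36% and 4.3% of the genes. The 5 further rises were all among these 25, and apart from Timp1 and Mmp13 they are named after their values were seen. Mmp7 (matrilysin, a small protease that lacks the hemopexin domain) had 24 counts in old ouabain, 62 in old vehicle and 3 in young livers, 33 of the 62 in old vehicle replicate 5. Mmp8, the neutrophil collagenase, had 24, 43 and 7 counts, and Mmp13, the main rodent interstitial collagenase, had 38, 66 and 15 counts in the same order of groups. Col23a1, a transmembrane collagen, had 21, 65 and 13 counts. The log2 fold changes of old vehicle over young were 3.97 for Mmp7 (adjusted p = 0.00176, edgeR with no filter), 2.38 for Mmp8 (adjusted p = 0.0111), 1.96 for Mmp13 (adjusted p = 0.0299) and 2.13 for Col23a1 (adjusted p = 0.0299). With no filter, 1 member rose and 1 fell in old ouabain relative to old vehicle, against 0.408% and 0.332% of the genes, and 1 rose and 0 fell in old ouabain relative to young, against 0.336% and 0.192%. Mmp11, with 35, 45 and 30 counts in old ouabain, old vehicle and young, shares 155 exon bases with the far more abundant Chchd10 on the opposite strand, and whether the counting used strand is not stated in the notes used here.

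**Figure D2:**
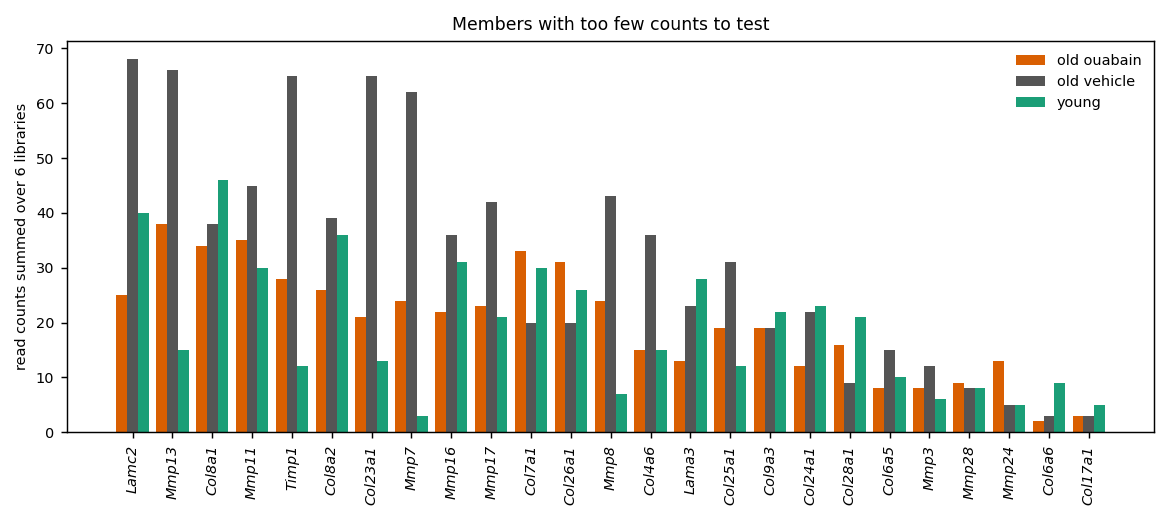
Read counts summed over the 6 libraries of each group (bars from 0, not scaled for depth) for the 25 genes with too few counts to test. Mmp13, Timp1, Col23a1, Mmp7 and Mmp8 have their highest bar in old vehicle and their lowest in young livers.

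Collagen RNA in these livers was dominated by Col18a1, whose protein sits in basement membranes as a proteoglycan and is made by hepatocytes as well as by other liver cells. It held 66.1 to 75.4% of all collagen counts in old ouabain, 66.8 to 75.4% in old vehicle and 66.2 to 75.7% in young libraries. Per kilobase of exon its level was 106, 100 and 119 CPM in old ouabain, old vehicle and young livers. The next collagens per kilobase were Col14a1, which coats the surface of fibrils (7.86, 7.52 and 7.45 CPM per kilobase), and the fibrillar Col3a1 (5.27, 3.93 and 6.35 CPM per kilobase). Exon lengths are those of a GRCm38 annotation, while the reads were aligned to mm9, so levels per kilobase are approximate.

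**Figure D3:**
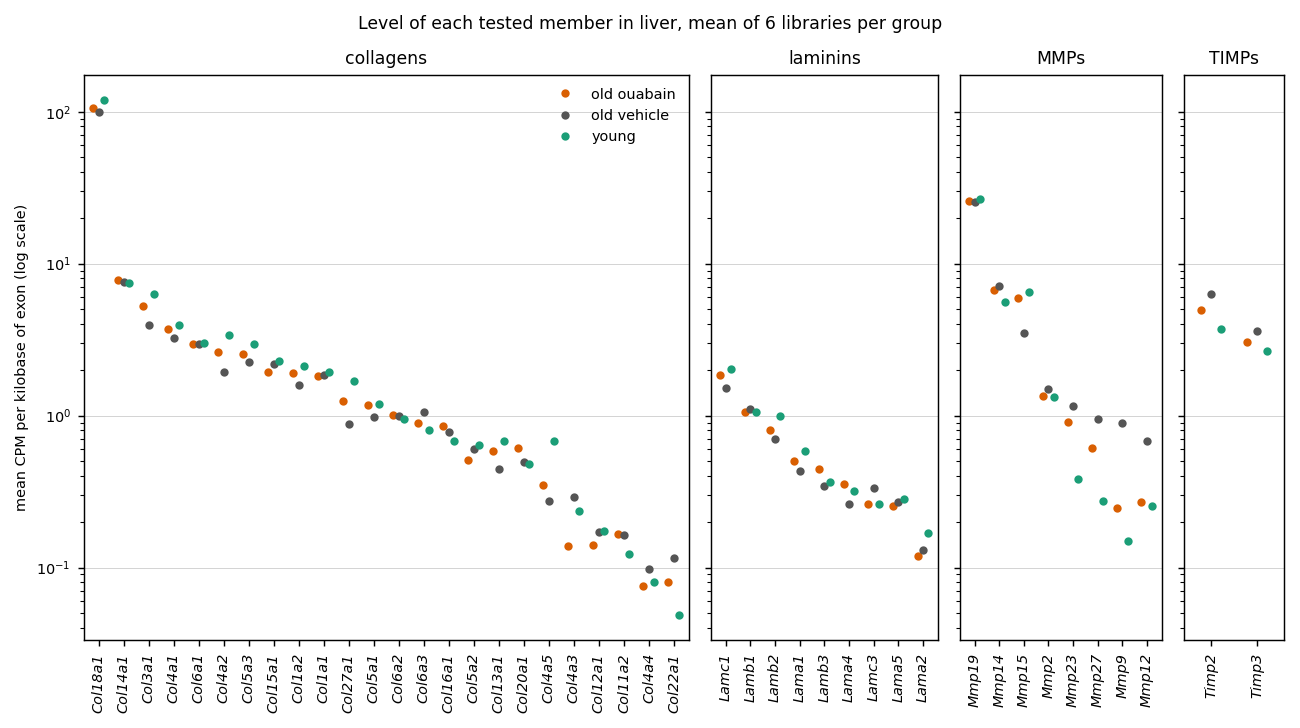
Mean level per kilobase of exon (CPM per kilobase, log axis) of the 43 tested genes in old ouabain, old vehicle and young livers, each point the mean of 6 libraries, ordered by level within collagens, laminins, MMPs and TIMPs. Col18a1 stands far above the other collagens and Mmp19 above the other MMPs in every group.

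Col18a1 ran from 620 to 839 CPM in old ouabain (median 763), from 636 to 773 CPM in old vehicle (median 698) and from 617 to 976 CPM in young livers (median 858). All 3 groups overlapped. Old vehicle over young was -0.25 (SE 0.10, adjusted p = 0.081, edgeR), and it passed without young replicate 1 at -0.33 (adjusted p = 0.0104). Old ouabain over old vehicle was 0.08 (SE 0.10, adjusted p = 0.677).

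Of the 37 collagen chains, 0 rose and 3 fell in old vehicle relative to young, 21 did not pass and 13 had too few counts. The 3 falls are 12.5% of the 24 tested, below the 19.2% called over all genes (8.32% lower). The tested collagens had a median log2 fold change of -0.08, beside -0.01 over all genes. The values ran from -1.31 (Col4a5) to 1.21 (Col22a1), and 9 of the 24 were positive. Col22a1 did not pass (SE 0.44, adjusted p = 0.0589, edgeR), but passed in 4 of the 18 fits that left out 1 library. In old ouabain relative to old vehicle none of the 24 tested passed, and the values ran from -1.09 (Col4a3) to 0.52 (Col27a1), with a median of 0.08. Old vehicle replicate 1 held 106 of the 175 old vehicle counts of Col4a3. Without each library in turn, the Col4a3 value ran from -1.38 to 0.00. Summed over all chains the level was 1050 ± 105 CPM in old ouabain, 978 ± 55.5 CPM in old vehicle and 1175 ± 201 CPM in young livers.

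The 3 falls were in type IV chains of the basement membrane and in 1 fibrillar chain. Col4a2, a chain of the main type IV collagen network, ran from 13.6 to 23.1 CPM in old ouabain (median 16.0), from 10.3 to 15.8 CPM in old vehicle (median 12.2) and from 16.6 to 32.5 CPM in young livers (median 21.3). Old vehicle and young did not overlap. It fell in old vehicle relative to young, at -0.81 (SE 0.17, adjusted p = 0.00214, edgeR), and passed without each library in turn. Old ouabain over old vehicle was 0.43 (SE 0.17, adjusted p = 0.17), with all 6 old ouabain libraries above the old vehicle median.

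Its partner Col4a1 joins the same trimer, and both genes are transcribed from a shared start region in opposite directions. Col4a1 had medians of 25.1, 23.7 and 28.6 CPM in old ouabain, old vehicle and young livers, and the ranges overlapped. Its old vehicle over young value was -0.29 (SE 0.16, adjusted p = 0.223, edgeR). The difference between the fold changes of Col4a1 and Col4a2 was not tested. The annotated exons of the pair share 22 bases.

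Col4a5, an X-linked type IV chain best known from the kidney, ran from 1.21 to 4.77 CPM in old ouabain (median 2.0), from 0.503 to 4.41 CPM in old vehicle (median 1.74) and from 2.64 to 7.67 CPM in young livers (median 3.92). The groups overlapped. It fell in old vehicle relative to young, at -1.31 (SE 0.43, adjusted p = 0.04, edgeR), and this call held in 10 of the 18 fits without 1 library; it was lost without old vehicle replicate 1, 2, 3, 4 or 6 or young replicate 2, 3 or 4 (adjusted p of 0.0565 to 0.0881). It passed in 5 of the 10 other settings, and was lost with no filter (adjusted p = 0.0732), with only the 12 libraries compared (0.0592), with a replicate block (0.0942), with old ouabain replicate 5 and old vehicle replicate 4 left out (0.0646) and with young replicates 1 and 2 left out (0.0724).

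Col27a1, a fibrillar chain best known from cartilage, ran from 10.9 to 23.1 CPM in old ouabain (median 15.7), from 8.04 to 17.3 CPM in old vehicle (median 10.9) and from 14.2 to 33.4 CPM in young livers (median 21.7). It fell in old vehicle relative to young, at -0.95 (SE 0.21, adjusted p = 0.00402, edgeR), without each library in turn as well. Old ouabain over old vehicle was 0.52 (SE 0.22, adjusted p = 0.187).

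The fibrillar chains that mark scar tissue did not pass. Col3a1 ran from 30.4 to 79.2 CPM in old ouabain (median 45.5), from 30.8 to 57.9 CPM in old vehicle (median 35.1) and from 33.5 to 116 CPM in young livers (median 47.9). Old vehicle over young was -0.70 (SE 0.30, adjusted p = 0.12, edgeR), and old ouabain over old vehicle was 0.43 (SE 0.30, adjusted p = 0.447). The 2 chains of type I collagen, named here for their role after their values were seen, were Col1a1 at -0.09 (SE 0.27, adjusted p = 0.858) and Col1a2 at -0.41 (SE 0.24, adjusted p = 0.256) in old vehicle over young. In old ouabain over old vehicle Col1a1 was -0.03 (SE 0.27, adjusted p = 0.962) and Col1a2 was 0.25 (SE 0.24, adjusted p = 0.607). Col14a1 gave 0.01 (SE 0.17, adjusted p = 0.977) in old vehicle over young and 0.06 (SE 0.17, adjusted p = 0.868) in old ouabain over old vehicle.

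**Figure D4:**
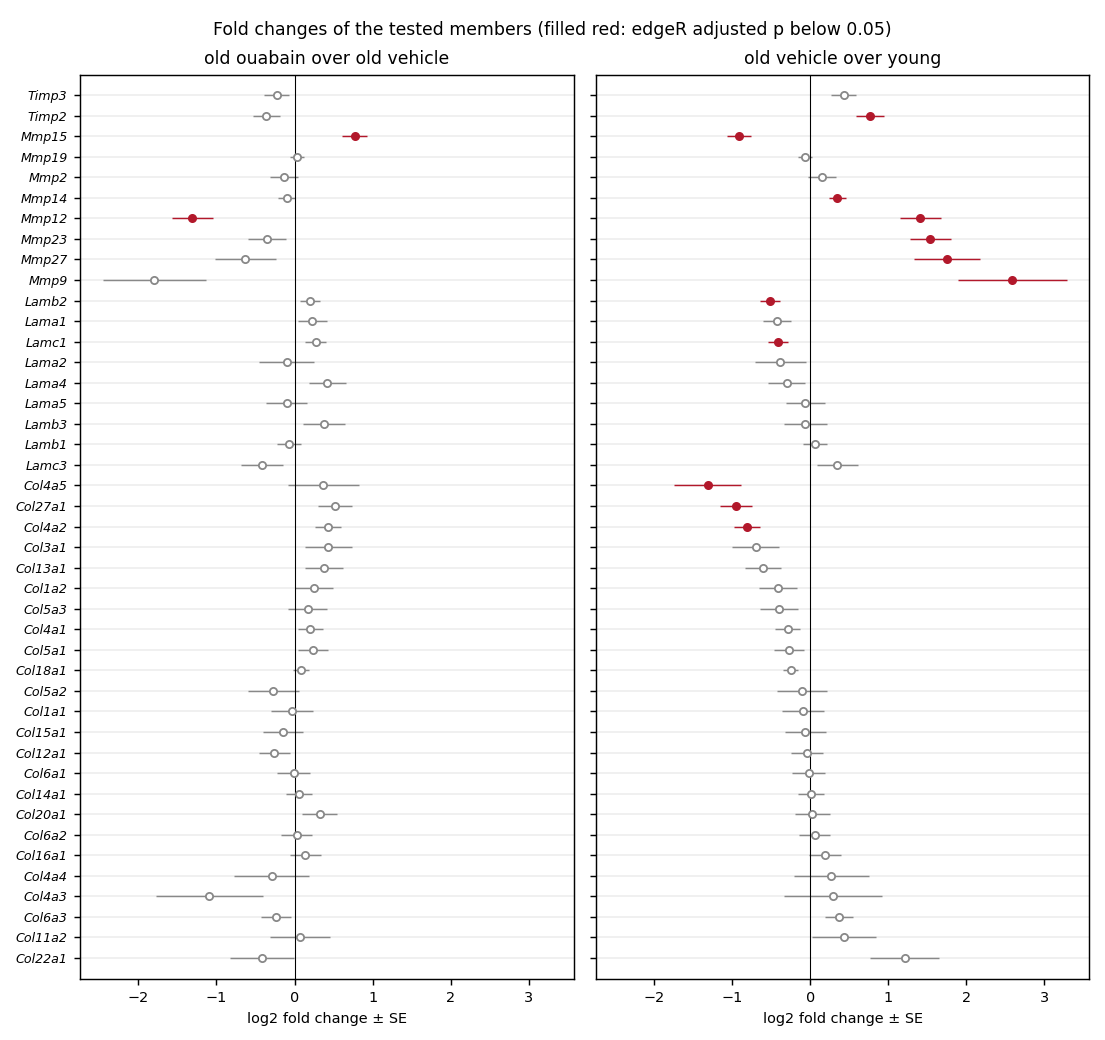
Log2 fold change ± SE of the 43 tested genes for old ouabain over old vehicle (left) and old vehicle over young (right), on 1 axis scale and grouped from top to bottom as TIMPs, MMPs, laminins and collagens. Filled red points passed at an adjusted p below 0.05: Mmp15 and Mmp12 on the left and 12 genes on the right, with every structural chain among them below 0.

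Of the 11 laminin chains, 0 rose and 2 fell in old vehicle relative to young, 7 did not pass and 2 had too few counts. The 2 falls are 22.2% of the 9 tested, near the 19.2% called over all genes. The 9 tested had a median of -0.30 in that comparison and of 0.20 in old ouabain relative to old vehicle, where none passed. Lamc1, the gamma chain of most laminin trimers, was the most abundant per kilobase, at 1.84, 1.52 and 2.03 CPM per kilobase in old ouabain, old vehicle and young livers. It ran from 13.1 to 17.7 CPM in old ouabain (median 15.1), from 10.5 to 14.5 CPM in old vehicle (median 12.7) and from 10.7 to 21.5 CPM in young livers (median 16.9). Young replicate 1 fell within the old vehicle range. Lamc1 fell in old vehicle relative to young, at -0.41 (SE 0.13, adjusted p = 0.0332, edgeR), which held in 11 of the 18 fits without 1 library and was lost without old vehicle replicate 3, 4 or 5 or young replicate 2, 3, 5 or 6 (adjusted p of 0.0528 to 0.0819). It was lost also with limma voom (adjusted p = 0.0577), with only the 12 libraries compared (0.0689) and with old ouabain replicate 5 and old vehicle replicate 4 both left out (0.0636).

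Lamb2, a beta chain of vessel and synaptic basement membranes, ran from 4.35 to 5.96 CPM in old ouabain (median 4.82), from 3.57 to 4.83 CPM in old vehicle (median 4.3) and from 4.89 to 7.21 CPM in young livers (median 6.04). Old vehicle and young did not overlap. It fell in old vehicle relative to young, at -0.51 (SE 0.13, adjusted p = 0.00707, edgeR), and passed without each library in turn. Old ouabain over old vehicle was 0.20 (SE 0.13, adjusted p = 0.402) for Lamb2 and 0.27 (SE 0.13, adjusted p = 0.266) for Lamc1, and in both genes all 6 old ouabain libraries lay above the old vehicle median. Lamb1, the other common beta chain, gave 0.06 (SE 0.15, adjusted p = 0.824) in old vehicle over young. The alpha chains did not pass: Lama1 gave -0.43 (SE 0.18, adjusted p = 0.111), and -0.57 (adjusted p = 0.00872) without young replicate 1. Lama4, of vessel walls, gave -0.30 (SE 0.24, adjusted p = 0.411) and Lama5, of epithelia and vessels, gave -0.06 (SE 0.25, adjusted p = 0.896).

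Libraries of the young group stood apart in collagen level. Young replicate 2 was the highest young library in 19 of the 24 tested collagens, or 79.2%, against 20.7% of all genes, and young replicate 1 was the lowest in 19, or 79.2%, against 25.1%. In 3 of the 24 (Col13a1, Col15a1 and Col27a1) the order was the other way, with Col27a1 at 17.6 CPM in young replicate 1 and 14.2 CPM in young replicate 2. Summed collagen ran from 844 CPM in young replicate 1 to 1475 CPM in young replicate 2, and the other young libraries lay from 1163 to 1217 CPM. The 12 stellate cell markers summed to 347 CPM in young replicate 1 and 579 CPM in young replicate 2, the lowest and the highest of that group. The part of these markers in the collagen values was not tested. With both libraries left out, an alternative chosen after seeing the data, Col4a2, Col27a1, Lamb2 and Lamc1 still fell in old vehicle relative to young, while Col4a5 (-1.21, adjusted p = 0.0724) and Mmp9 (2.39, adjusted p = 0.0548) no longer passed. The same setting added 3 falls, Col18a1 (-0.29, adjusted p = 0.0274), Lama1 (-0.60, adjusted p = 0.0111) and Col13a1 (-0.76, adjusted p = 0.025), and 2 rises, Timp3 (0.53, adjusted p = 0.0089) and Mmp13 (2.21, adjusted p = 0.0436), for 15 calls in place of 12.

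**Figure D5:**
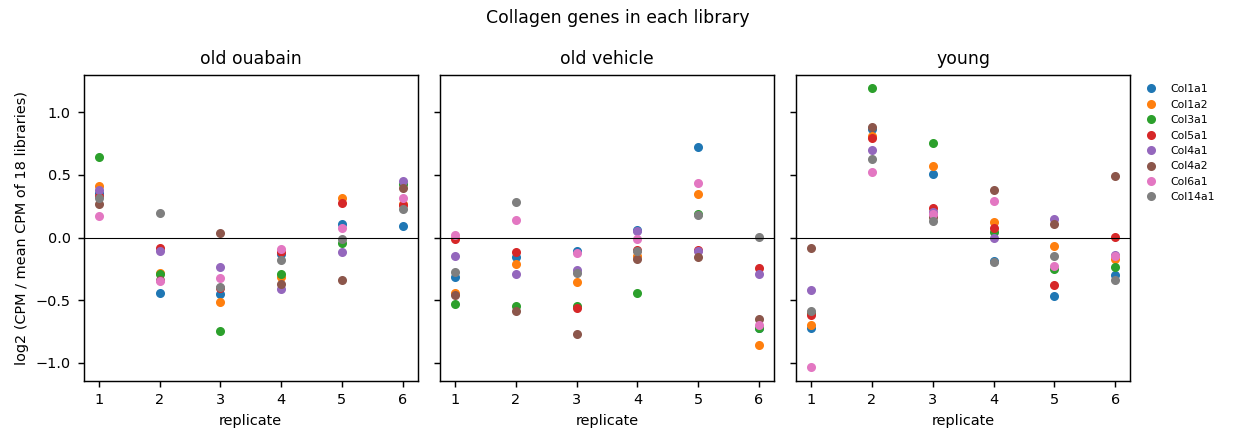
Level of 8 collagen genes (Col1a1, Col1a2, Col3a1, Col5a1, Col4a1, Col4a2, Col6a1 and Col14a1) in each library as log2 of its CPM over the mean CPM of the 18 libraries (0 is the mean), for old ouabain, old vehicle and young livers; the replicate numbers on the horizontal axis are names and carry no order. For these 8 genes the points of young replicate 1 lie below those of young replicate 2.

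The levels of blood cell markers are given beside the protease values. All marker lists were chosen with earlier results of these data known, so the shares called are descriptions. The 12 macrophage markers summed to 301 to 816 CPM in old ouabain, 377 to 1581 CPM in old vehicle and 219 to 311 CPM in young livers. In old vehicle over young 11 of 12 rose and 0 fell, or 91.7%, against 19.2% of all genes tested (10.9% higher). In old ouabain over old vehicle 0 rose and 3 fell (Itgax, Ccr2 and Ms4a7), or 25%, against 1.84% of all genes (0.851% lower). In old ouabain over young 2 rose (Ms4a7 and Trem2) and 0 fell, or 16.7%, against 1.12%. The 10 neutrophil markers summed to 19.3 to 41.3 CPM in old ouabain, 22 to 94.3 CPM in old vehicle and 6.92 to 16.1 CPM in young livers. Of 9 tested, 8 rose in old vehicle over young, or 88.9%, against the same 19.2% of all genes. None of the 9 passed in old ouabain over old vehicle or over young. Old vehicle replicate 4, which held the high Mmp9, also had the highest macrophage sum, 1581 CPM. Old vehicle replicate 2 had the next highest macrophage sum, 961 CPM, and the lowest Mmp9 of that group, 0.751 CPM. The neutrophil sum was 90.6 CPM in old vehicle replicate 4 and 94.3 CPM in replicate 3, where Mmp9 was 1.52 CPM. The old vehicle libraries with the highest Mmp12, replicates 6 and 1 at 8.36 and 7.24 CPM, had macrophage sums of 393 and 377 CPM, below those of the other old vehicle libraries (422 to 1581 CPM). The part of these cells in the Mmp and Timp results was not tested.

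Few markers of matrix-producing cells passed the test. Stellate cell markers summed to 443 to 575 CPM in old ouabain, 445 to 614 CPM in old vehicle and 347 to 579 CPM in young livers, and 1 of 12 rose in old vehicle over young (Dcn). Of the fibroblast and smooth muscle markers 1 of 10 rose (Thy1), of the endothelial markers 1 of 13 fell (Tek) and of the mesothelial markers 1 of 5 rose (Wt1). Of 10 hepatocyte markers 0 rose and 3 fell (Ttr, Fgb and Ahsg). Over all genes tested, 10.9% were higher and 8.32% lower in old vehicle than in young livers. The 10 bile duct markers summed to 48.4 to 65.1 CPM in old ouabain, 40.6 to 145 CPM in old vehicle and 58.6 to 95.4 CPM in young livers, with the 145 CPM in old vehicle replicate 5, which also held 33 of the Mmp7 counts. The part of hepatocyte and bile duct cells in the Col18a1 and Mmp7 values was not tested. None of these lists had a gene that passed in old ouabain over old vehicle. Pancreatic acinar markers, which would show neighbouring tissue, summed to at most 18.1, 22.8 and 17.7 CPM in old ouabain, old vehicle and young livers.

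Genes that act on collagens, laminins and MMPs were described from 5 lists. These lists too were chosen with earlier results of these data known, so the shares called are descriptions. Among collagen-processing enzymes and chaperones, 1 of 26 tested rose and 4 fell in old vehicle relative to young. This is 19.2% of those tested and the same share as over all genes. The falls included Sparc, a collagen-binding protein, at 52.6 ± 8.09 CPM in old vehicle and 82.7 ± 22.4 CPM in young livers (-0.65, SE 0.16, adjusted p = 0.00742, edgeR). Ppib, a prolyl isomerase of the collagen-folding complex, fell to 217 ± 18.4 CPM in old vehicle, against 302 ± 28.1 CPM in young livers (-0.48, SE 0.08, adjusted p = 0.000386). Plod3, a lysyl hydroxylase, fell by 0.35 on the log2 scale (adjusted p = 0.0403), and P4hb, the beta subunit of prolyl hydroxylase, also fell. The only rise was Colgalt2, a collagen galactosyltransferase, at 3.46 ± 3.63 CPM in old vehicle and 0.434 ± 0.349 CPM in young livers (2.95, SE 0.85, adjusted p = 0.0214).

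Of 10 tested basement membrane components beyond type IV collagen and laminin, 1 fell in old vehicle relative to young, or 10% of those tested. It was the heparan sulfate proteoglycan agrin (Agrn), at 22.2 ± 0.683 CPM in old vehicle and 31.2 ± 4.4 CPM in young livers (-0.49, SE 0.09, adjusted p = 0.000677, edgeR). Of 14 tested receptors, 2 rose and 1 fell, or 21.4%, near the share over all genes. The rises were Lair1, an inhibitory collagen receptor of leukocytes (1.62, SE 0.28, adjusted p = 0.000491), and Mrc2, which takes up collagen (0.84, SE 0.21, adjusted p = 0.00817). The fall was dystroglycan, Dag1, a laminin receptor (-0.42, SE 0.13, adjusted p = 0.0278).

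Of 20 tested activators, inhibitors and related proteases, 9 rose and 1 fell in old vehicle relative to young. This is 50% of those tested, beside 19.2% of all genes, and is a description, since the list was chosen with earlier results known. The cysteine protease cathepsin S (Ctss) was at 112 ± 52.5 CPM in old vehicle and 30.2 ± 5.68 CPM in young livers (1.90, SE 0.31, adjusted p = 0.000627, edgeR). Plau and Plat, the plasminogen activators, rose by 1.83 (SE 0.35, adjusted p = 0.000923) and 1.27 (SE 0.34, adjusted p = 0.0119), and the serine protease Htra3 rose by 1.22 (SE 0.28, adjusted p = 0.00383). The fall was Reck, a membrane inhibitor of MMPs (-0.52, adjusted p = 0.0468). Ctss and Lair1 are also made by macrophages, whose markers moved in the same direction. The part of macrophages in the Ctss and Lair1 values was not tested.

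Of 28 tested genes of TGF-beta and PDGF signalling, 6 rose and 0 fell in old vehicle relative to young, which is 21.4% of the list, near the 19.2% called over all genes (10.9% higher). Ccn2, a secreted protein induced by TGF-beta and also called connective tissue growth factor, ran from 2.7 to 11.3 CPM in old ouabain (median 6.46), from 11.1 to 39 CPM in old vehicle (median 21.6) and from 1.87 to 8.67 CPM in young livers (median 4.62). Old vehicle and young did not overlap, and the highest old ouabain library (11.3 CPM) lay just above the lowest old vehicle library (11.1 CPM). It rose in old vehicle over young, at 2.33 (SE 0.42, adjusted p = 0.0011, edgeR), and fell in old ouabain over old vehicle, at -1.91 (SE 0.41, adjusted p = 0.0285). It was the only gene of the 5 lists that passed in old ouabain over old vehicle, and none passed in old ouabain over young. The inhibitory Smad7 (0.93, adjusted p = 0.018), the latent TGF-beta binding protein Ltbp1 (0.91, adjusted p = 0.00196) and Tgfb3 (0.85, adjusted p = 0.0277) were among the other rises. The median of the list was 0.30 in old vehicle over young and -0.20 in old ouabain over old vehicle, beside -0.01 over all genes in both.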

How the data were processed

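The data are raw, unnormalized read counts for 37620 Ensembl genes in 18 libraries, deposited by the authors. The submitters' processing notes name TopHat2 2.0.11, the build mm9 and featureCounts. Neither the annotation release nor the strand setting is stated in the notes used here, so overlapping genes cannot be told apart with certainty. How the 12 old mice analysed here relate to the 16 old mice of the design text is not stated either. Replicate libraries differed by a chi-square of 5.31 to 58.1 per gene, and sampling noise alone would give 1.

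The deposited counts were tested in edgeR 4.0.16 (R 4.3.3) with its expression filter (minimum count 10), TMM scaling, 1 robust quasi-likelihood fit over all libraries, two-sided tests and Benjamini-Hochberg adjustment over 14226 genes. SEs were approximated from the fold change and its F statistic. On simulated counts for old ouabain against old vehicle (14226 genes) the fit recovered 69% of genes changed 2-fold and 98% of those changed 4-fold, with 3.47% false calls. Alternatives were other size factors, filters, tools (DESeq2 1.42.0, limma 3.58.1), library subsets and a replicate block. Named are all genes that passed, of the others the 4 of highest CPM per family (collagens, laminins, MMPs) and all TIMPs, and up to 4 passing genes per further list. The genes and lists were chosen with earlier results of these data known.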

Additional observations from a re-analysis of the deposited data

Results flagged for a closer look

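In 78 checks of a group's highest or lowest library against the others, 4 libraries stood apart, and chance flags about 1 in 20 groups. Mmp9 was 13.0 CPM in old vehicle replicate 4, against 0.751 to 1.52 CPM in the other old vehicle libraries. Col3a1 was 57.9 CPM in old vehicle replicate 5, against 30.8 to 37.5 CPM in the others of that group. Timp1 was 0.218 CPM in old ouabain replicate 4, against 0.518 to 0.696 CPM in the others, and 1.81 CPM in old vehicle replicate 1, against 0.751 to 1.03 CPM in the others. The Timp1 values rest on 2 and 18 counts.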

How the results depend on the processing

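Counts of members that passed are given over 18 fits without 1 library and 10 other settings. In old ouabain against old vehicle 2 passed, with 1 to 2 without 1 library. Leaving out old vehicle replicate 4 and old ouabain replicate 5 together gave 1, losing Mmp15. In old vehicle against young 12 passed, with 10 to 15 without 1 library and 8 to 16 under the other settings: 8 with only the 12 libraries compared and 16 with no filter. In old ouabain against young 1 passed, with 0 to 1 without 1 library, and 0 when the same pair of old libraries was left out. No called fold change turned its sign under these settings. Deviations of same-numbered libraries correlated at -0.136 to 0.158 over 18 pairs, so no strong pairing by replicate number was seen. Weak correlations cannot exclude a shared handling of same-numbered libraries. With a replicate block 2, 11 and 0 members passed in the same order of comparisons, losing Col4a5 and Mmp23. The cause of these losses was not tested. Depth limits the 25 genes without a test, whose counts per library are few.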
